A study of Mus musculus with 4 samples.

Results

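The loci described here belong to 10 genes through which bone cells receive hormonal, vitamin D and retinoid signals. They encode the nuclear receptors *Vdr*, *Rxra*, *Rara*, *Rarb*, *Rarg*, *Nr3c1* and *Esr1*, the membrane receptor *Pth1r*, and the catabolic enzymes *Cyp24a1* and *Cyp26b1*. Their members were the accessible regions that overlapped one of these genes or the 25 kb on either side of it in GENCODE M21 (GRCm38), whatever their values. This gave 274 of the 255864 regions of the count table, around 10 of 21938 protein-coding genes.

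Chromatin accessibility had been measured by ATAC-seq, in which a transposase inserts adaptors into open DNA, in primary osteoblasts from 3-day-old C57BL/6 mice. Wild-type mice (WT) were compared with TCKO mice, which carried Prx1-Cre together with Tet1fl/fl, Tet2fl/fl and Tet3fl/fl alleles. The labels list 2 samples per genotype while a protocol text speaks of 3 repeats, and the deposited counts hold 1 merged column per genotype. There is thus no spread between replicates and no test of genotype, and each difference compares 2 merged libraries. Cre expression from the Prx1 promoter is limited to mesenchymal cells, the methods place the origin of the cells in the calvaria, and accessibility does not measure how completely the floxed exons were lost. The control is labelled only as wild type, so whether it carried floxed alleles is not given. In such bulk material, fewer cells with an open region and less opening per cell cannot be told apart.

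Nuclear receptors are transcription factors that bind DNA directly and change the activity of their target genes when a small lipophilic ligand fills their pocket. The vitamin D receptor and the retinoic acid receptors do so mostly as dimers with the retinoid X receptor, whereas the glucocorticoid and estrogen receptors bind palindromic elements as homodimers. In osteoblasts these receptors, together with the parathyroid hormone receptor at the cell surface, adjust differentiation, matrix mineralisation and the support of osteoclasts. CYP24A1 and CYP26B1 break down the active forms of vitamin D and retinoic acid, and the genes for such enzymes are known targets of the receptors.

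The regions with the largest differences in 6 of the loci, and the promoter elements of the retinoic acid receptors, are printed here because the results refer to them. All printed stretches are on the plus strand of GRCm38. The first 6 are the central bases of the largest fall around each gene (or the whole region where it is short), and the next 2 are those of the largest rises. These falls and rises were picked among regions past 2-fold whose larger count was at least 100. In them, capitals mark the bZIP letters TGACTCA, bound by AP-1 type factors, and the Runt letters TGTGGT, bound by RUNX factors, both read on either strand. In the last 2, capitals mark a direct repeat of the nuclear receptor hexamer with a spacer of 5 bases (DR5), the arrangement preferred by retinoic acid receptor dimers. The stretches lie at chr2:27786006-27786205 for *Rxra*, chr11:98940269-98940468 for *Rara*, chr14:16549499-16549670 for the fall at *Rarb*, chr10:4612352-4612551 for *Esr1*, chr9:110736525-110736724 for *Pth1r* and chr6:84579651-84579850 for the fall at *Cyp26b1*. The rises lie at chr14:16589465-16589664 for *Rarb* and chr6:84561323-84561522 for *Cyp26b1*, and the elements at chr14:16575506-16575535 and chr15:102247204-102247263.
Rxra fall: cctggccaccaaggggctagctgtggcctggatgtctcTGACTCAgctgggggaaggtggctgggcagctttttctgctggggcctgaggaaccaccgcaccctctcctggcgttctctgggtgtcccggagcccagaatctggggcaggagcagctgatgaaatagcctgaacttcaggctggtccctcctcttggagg
Rara fall: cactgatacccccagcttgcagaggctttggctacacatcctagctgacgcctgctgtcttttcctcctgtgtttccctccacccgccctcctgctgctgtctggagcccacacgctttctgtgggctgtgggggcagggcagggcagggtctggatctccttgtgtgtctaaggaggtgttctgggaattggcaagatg
Rarb fall: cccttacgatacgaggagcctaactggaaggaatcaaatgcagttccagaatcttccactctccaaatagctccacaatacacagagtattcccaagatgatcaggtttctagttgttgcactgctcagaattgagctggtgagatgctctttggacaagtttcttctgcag
Esr1 fall: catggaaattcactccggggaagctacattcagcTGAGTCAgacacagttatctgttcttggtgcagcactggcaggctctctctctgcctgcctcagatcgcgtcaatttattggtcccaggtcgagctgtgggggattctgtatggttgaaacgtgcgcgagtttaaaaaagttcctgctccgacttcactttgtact
Pth1r fall: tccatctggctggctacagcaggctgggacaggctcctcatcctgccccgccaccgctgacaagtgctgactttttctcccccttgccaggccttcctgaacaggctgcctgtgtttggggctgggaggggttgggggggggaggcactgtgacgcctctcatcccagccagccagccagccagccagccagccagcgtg
Cyp26b1 fall: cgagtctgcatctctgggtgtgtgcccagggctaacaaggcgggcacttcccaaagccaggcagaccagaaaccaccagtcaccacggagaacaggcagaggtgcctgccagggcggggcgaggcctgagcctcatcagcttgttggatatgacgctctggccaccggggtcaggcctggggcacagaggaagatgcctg
Rarb rise: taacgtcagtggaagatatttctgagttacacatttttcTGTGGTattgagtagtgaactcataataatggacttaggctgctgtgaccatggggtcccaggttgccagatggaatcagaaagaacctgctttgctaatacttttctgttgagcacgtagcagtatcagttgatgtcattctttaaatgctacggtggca
Cyp26b1 rise: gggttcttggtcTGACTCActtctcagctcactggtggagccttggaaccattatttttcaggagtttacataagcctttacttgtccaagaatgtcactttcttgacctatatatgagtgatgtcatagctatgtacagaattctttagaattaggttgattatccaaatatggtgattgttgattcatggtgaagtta
Rarb DR5: atgcgagTGAACTTTCGGTGAACCcttccc
Rarg DR5: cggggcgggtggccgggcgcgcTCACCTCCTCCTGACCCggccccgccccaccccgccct
The bZIP letters are present in the stretches of *Rxra*, *Esr1* and the rise at *Cyp26b1*, and the Runt letters in the rise at *Rarb*. The bZIP letters occurred in the central 200 bp of 18.6% of all regions and the Runt letters in 22.2%. Neither was found in the other 4 of these 8 stretches.

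Direct repeats and palindromes bound by nuclear receptors were rare in these loci. Read over whole regions, DR5 was found in 2 member regions (0.730%, against 0.374% of all regions), a spacer of 2 (DR2) in 3 (1.09%, against 0.417%), a spacer of 3 (DR3, the vitamin D type) in 1 (0.365%, against 0.287%) and a spacer of 4 (DR4) in 1 (0.365%, against 0.347%). The repeat with a spacer of 1, the glucocorticoid element and the estrogen element GGTCANNNTGACC were found in 0 of the 274 regions, against 0.406%, 0.293% and 0.0610% of all regions. Both DR5 elements lay in promoter regions of retinoic acid receptor genes, at *Rarb* and *Rarg*. Among 32851 RefSeq promoters of 300 bases (GRCm38.p6; 250 before the start and 50 after), 0.323% held DR5, and *Rarb* was the 1 gene with DR5 among the 8 members that matched that table with 16 promoters.

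To ask whether loss of the TET enzymes changed accessibility of these loci, TCKO counts were scaled to the WT total (56898657 counts in WT, 34608167 in TCKO, a factor of 1.64) and compared with WT as a log2 ratio with 1 count added. The members accounted for 0.161% of all WT counts and for 0.149% in TCKO. The median member region had 161 WT and 92.0 TCKO counts, more than the median of all regions (86.0 and 60). The median log2 ratio of the 274 regions was 0.00 (95% interval of the median over regions, -0.09 to 0.07), beside 0.06 for all regions. Of the 274 regions, 12 (4.38%) had a TCKO level reduced at least 2-fold and 22 (8.03%) had it raised at least 2-fold. Over all regions these shares were 4.51% and 12.3%, so the share lower was near the background and the share higher was below it. An interval wholly past 2-fold was found for 2 regions on the lower side, at *Rara* and *Nr3c1*, and for 5 on the higher side, all at *Rarb*. The share over all regions was not computed for this call, so these counts have no background. Both lower regions had a summit in the WT peak list alone. Most of the 5 higher regions had a summit in the TCKO list alone and held under 100 counts over both genotypes.

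The differences were unevenly spread over the loci. Summed over each locus, *Rxra*, *Nr3c1* and *Rara* were lower in TCKO by 24.4%, 20.9% and 20.1%, and these were the 3 of 10 loci at least 20% lower. That share was 2.96% over the 19535 protein-coding loci with at least 100 counts. *Pth1r* and *Vdr* were lower by 6.21% and 4.38% and *Rarg* by 1.21%. *Esr1*, *Cyp24a1*, *Rarb* and *Cyp26b1* were higher by 8.62%, 12.1%, 12.5% and 23.2%, and 0 of 10 loci was at least 25% higher, against 9.40% of all loci. All 10 loci held at least 5000 counts over both genotypes, and among the 11025 loci with that many, 284 (2.58%) were at least 20% lower and 165 at least 25% higher. The intervals of the ratios are 95% Wilson intervals and hold counting error alone. By these, neighbours in the order did not overlap between *Rara* and *Pth1r*, *Rarg* and *Esr1*, and *Rarb* and *Cyp26b1*, whereas all other neighbours overlapped. Adjustments for trends narrowed the group of 3: with the loess trend removed 1 locus, *Rxra*, was past 20%, and with the GC trend removed 2 were, *Rxra* and *Nr3c1*. Without scaling all 10 loci were at least 20% lower, and with depth read from the peak caller's background 9 were.

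**Figure D1:**
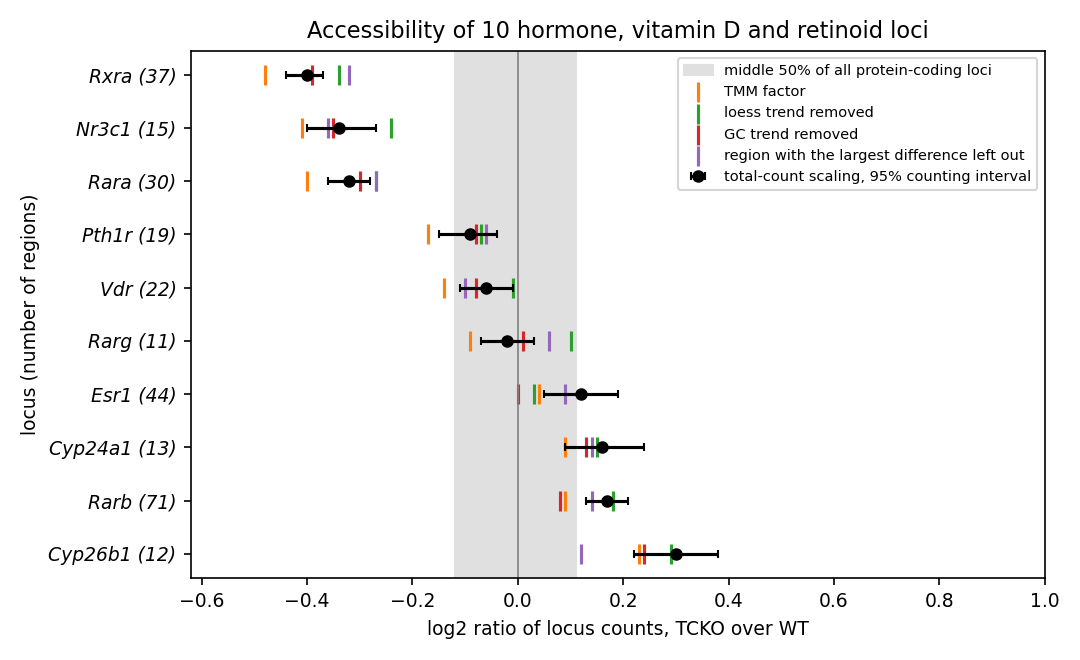
Log2 ratio of summed counts (TCKO over WT) of the 10 loci, with the number of regions of each in brackets. Black points and bars give the total-count scaling and its 95% counting interval, coloured ticks give alternatives, and the grey band spans the middle 50% of all 19535 loci (-0.12 to 0.11). *Rxra* (-0.40), *Nr3c1* (-0.34) and *Rara* (-0.32) lie left of the band, and *Cyp26b1* (0.30) drops to 0.12 without the region with the largest difference.

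*Rxra*, which encodes the common dimer partner of the vitamin D and retinoic acid receptors, had the most counts of the 10 loci and the lowest ratio. The gene lies at chr2:27676440-27762957 on the plus strand, with no other protein-coding gene within 25 kb, and held 37 regions. They summed to 21405 counts in WT and 9839 in TCKO (16176 after scaling), a log2 ratio of -0.40 (-0.44 to -0.37) at percentile 1.35 of all loci. The lower counts ran along the locus: 29 of 37 regions had a ratio below 0 and 22 had an interval wholly below 0, while 2 had an interval wholly above 0. Over all regions the interval lay below 0 in 18.9% and above 0 in 29.5%.

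The lowest region of the locus was also the one with the most counts, at chr2:27785594-27786616 in the 3′ flank, 23.1 kb past the gene's end. It held 3107 counts in WT and 932 in TCKO (1532 after scaling), a log2 ratio of -1.02 (-1.13 to -0.91). At its summit, 98 reads were stacked in WT and 58 in TCKO by the peak lists, in which the caller by default keeps 1 read per position and strand. Relative to the median of the 145301 regions with a summit in both lists, the stacked reads were lower by a log2 difference of -0.39 and the counts by -1.16. The direction was thus shared by both measures, and the size was not.

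Another region of the *Rxra* 3′ flank (chr2:27774165-27774879, 11.6 kb past the gene's end) held 2040 and 764 counts (-0.70, -0.82 to -0.58). The intronic region with DR2 (chr2:27739726-27740725) held 1942 and 912 (-0.37, -0.49 to -0.26), and a region of the 5′ flank with DR3 (chr2:27653301-27654148) held 418 and 261 (0.04). The regions at the CpG-rich first start, whose RefSeq promoter held 55 CpG in 300 bases, more than 99.7% of promoters, differed in direction. They held 376, 263 and 141 counts in WT and 187, 144 and 125 in TCKO, with log2 ratios of -0.29 (-0.54 to -0.04), -0.15 (-0.44 to 0.14) and 0.54 (0.20 to 0.89). Within 2 kb of the gene's start these summed to a ratio of -0.06, and without the 3′ region of 3107 counts the locus stood at -0.32, just short of 20% lower. Over the 24 regions with a summit in both lists, the stacked reads had a median difference of -0.29 from the median of all shared regions, and 19 of 24 lay below it.

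*Rara*, the retinoic acid receptor with the broadest expression, lies at chr11:98927818-98974942 on the plus strand among *Wipf2*, *Cdc6*, *Gjd3* and *Top2a*. Its 30 regions held 15708 counts in WT and 7635 in TCKO (12553 scaled), a log2 ratio of -0.32 (-0.36 to -0.28; percentile 2.90). Of these regions, 22 had a ratio below 0, 13 an interval wholly below 0 and 3 an interval wholly above 0. With the 2 regions at promoters of other genes left out the locus stood at -0.36.

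Its promoters did not move together. The region over the CpG-rich start (chr11:98937453-98937772) held 1160 counts in WT and 714 in TCKO (1174 scaled), a log2 ratio of 0.02 (-0.12 to 0.15). A region 0.657 kb after an alternative start (chr11:98940121-98940616), with 1.21 CpG per 100 bp, held 1023 and 246 counts (404.4 scaled), the largest fall of the locus at -1.34 (-1.54 to -1.14). The peak lists gave it 2 summits in WT and 0 in TCKO. Per 100 bp, the region over the CpG-rich start held 362.5 counts in WT and 366.8 scaled counts in TCKO, and the latter region held 206.2 and 81.5. Without it the locus stood at -0.27, no longer 20% lower.

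Elsewhere at *Rara*, the intronic region with the most counts (chr11:98942064-98943206) held 2092 and 1002 counts (-0.34, -0.45 to -0.24). A 5′ flank region inside *Cdc6* (chr11:98922393-98923761) held 1460 and 540 (-0.72, -0.86 to -0.58), whereas the region at the *Cdc6* promoter held 1149 and 640 (-0.13, -0.27 to 0.01). The other region past 2-fold lay inside *Top2a*, 22.4 kb past the end of *Rara*, with 124 and 32 counts (-1.22, -1.79 to -0.68). Among the 22 regions with a summit in both lists, the stacked reads of 18 were below the median difference of shared regions, with a median of -0.23.

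*Rarb*, a retinoic acid receptor gene that is itself induced by retinoic acid through the DR5 element in its promoter, lies at chr14:16430839-16819156 on the minus strand and was among the longest of these genes (388.3 kb). Its 71 regions held 14357 counts in WT and 9827 in TCKO (16156 scaled), a log2 ratio of 0.17 (0.13 to 0.21; percentile 81.7). In contrast to *Rxra* and *Rara*, 47 of 71 regions had a ratio above 0 and 29 (40.8%, against 29.5% of all regions) had an interval wholly above 0. At least 2-fold higher were 11 regions (15.5%) and at least 2-fold lower 3 (4.23%), near the 12.3% and 4.51% of all regions.

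The promoter region with the printed DR5 element (chr14:16574900-16575881) was not past 2-fold. It held 907 counts in WT and 600 in TCKO (986.4 scaled), a log2 ratio of 0.12 (-0.03 to 0.27), with 64 and 51 reads stacked at the highest summits. At the farthest upstream start, the region chr14:16818756-16819070 held 81 and 90 counts (0.86). The region with the most counts, in an intron at chr14:16448443-16449198, held 1249 and 799 (0.07, -0.06 to 0.20). The region second in WT counts (chr14:16433142-16433789), in an intron of *Rarb* and inside *Top2b*, held 973 and 471 and was lower (-0.33, -0.49 to -0.17).

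The largest rise with at least 100 counts was in an intron 13.7 kb before the DR5 promoter's start, at chr14:16589216-16589913. It held 168 counts in WT and 305 in TCKO (501.4 scaled), a log2 ratio of 1.57 (1.31 to 1.85), with 2 summits in each list. Its stacked reads went from 18 in WT to 28 in TCKO, also higher relative to the median of shared regions. Another intronic region (chr14:16765857-16766205) held 185 and 245 counts (1.12, 0.85 to 1.40). A further rise (chr14:16509928-16510102) held 74 and 103 (1.18, 0.77 to 1.62). The remaining 8 of the 11 rises had under 100 counts over both genotypes, and the highest ratio, 4.28 (2.70 to 7.79), rested on 1 count in WT and 23 in TCKO. The largest fall with at least 100 counts (chr14:16549499-16549670) held 110 and 33 counts (-1.01, -1.58 to -0.46) and lay just past the cutoff, beside an intronic region just inside it with 148 and 45 (-0.99).

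*Rarg*, the retinoic acid receptor prominent in cartilage and skin, lies at chr15:102234938-102257517 on the minus strand in a gene-dense stretch with *Zfp740*, *Itgb7*, *Gm9918* and *Mfsd5*. Its 11 regions held 8411 counts in WT and 5054 in TCKO (8309 scaled), a log2 ratio of -0.02 (-0.07 to 0.03). The 2 regions with the most counts lay at its alternative promoters. The region with the printed DR5 (chr15:102246356-102247909) held 2327 and 1467 counts (0.05, -0.04 to 0.15), and that at the upstream start (chr15:102257147-102259271) held 2325 and 1189 (-0.25, -0.35 to -0.15). These had near equal counts in WT, and in TCKO the upstream one was lower with an interval clear of 0. A weaker region at another start (chr15:102243520-102243717) held 340 and 166 counts and was lower too (-0.32, -0.58 to -0.05). The retinoic acid receptor genes thus ordered as *Rara*, *Rarg* and *Rarb*, and the interval of *Rarg* overlapped neither of the others.

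**Figure D2:**
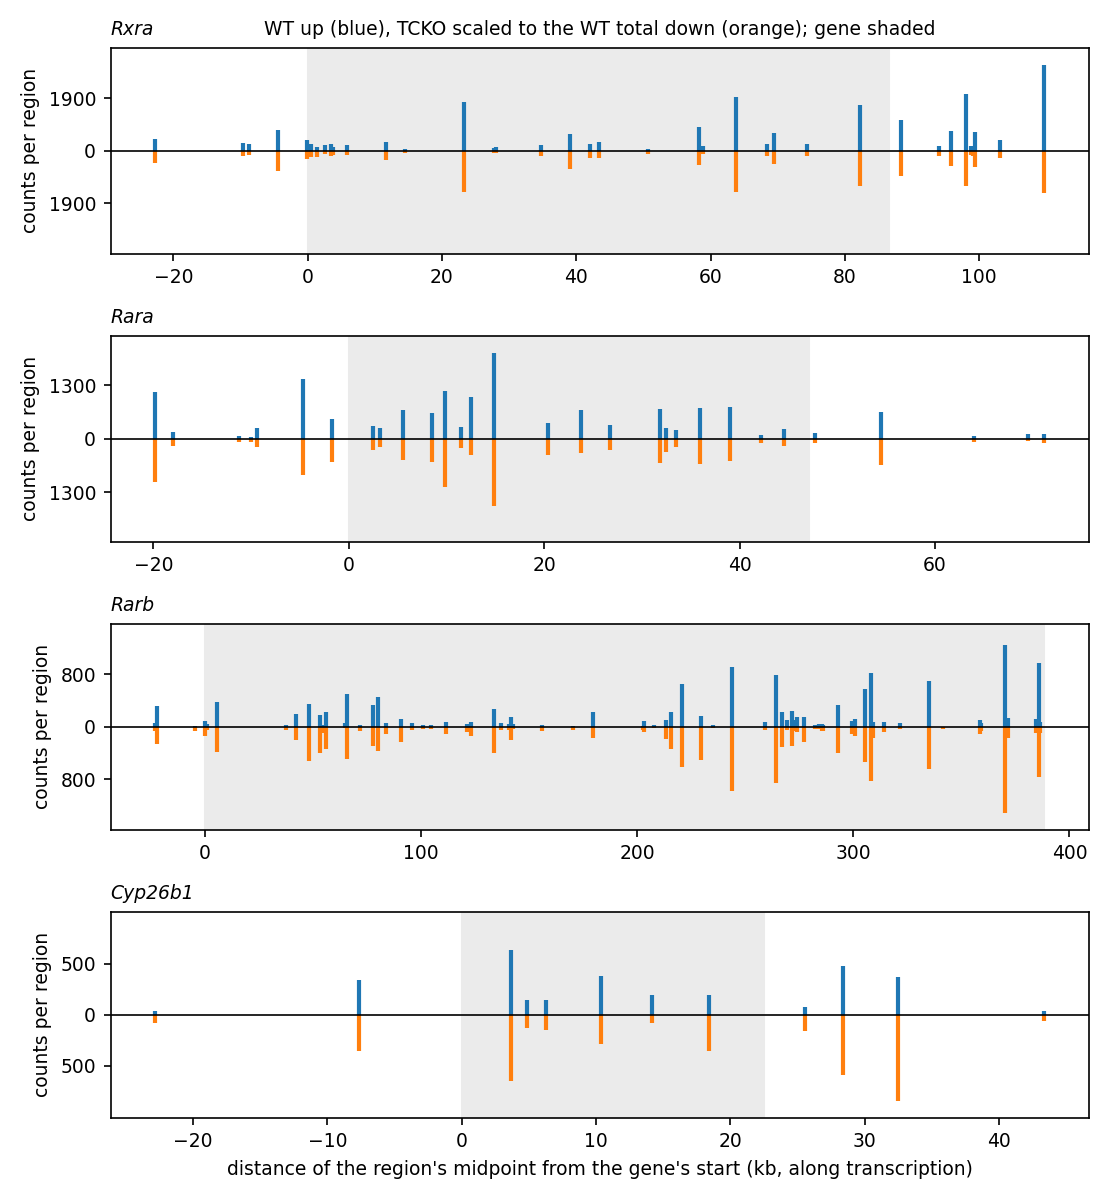
Counts per region along *Rxra*, *Rara*, *Rarb* and *Cyp26b1*, against the distance of the region's midpoint from the gene's start in kb along transcription, with WT drawn upward in blue, TCKO scaled to the WT total downward in orange and the gene shaded. The last bar of *Rxra* (3107 against 1532) is shorter in TCKO, and the tallest TCKO bar of *Cyp26b1* (845.1 against 370) lies past the gene's end.

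*Vdr*, the vitamin D receptor, lies at chr15:97854425-97910630 on the minus strand with *Hdac7* downstream. Its 22 regions held 8583 counts in WT and 4992 in TCKO (8207 scaled), a log2 ratio of -0.06 (-0.11 to -0.01; percentile 39.2). Its main promoter region (chr15:97907233-97908447) held 1278 and 758 counts (-0.04, -0.17 to 0.09), and its strongest region, 3.77 kb before the start (chr15:97914014-97914776), held 1488 and 851 (-0.09, -0.21 to 0.03). The intronic region chr15:97887293-97888068 held 1367 and 767 (-0.12, -0.24 to 0.01). The 3 strongest elements of the gene had intervals that included 0. The 1 region past 2-fold was sparse, with 46 and 13 counts, 20.6 kb before the start (-1.07, -1.98 to -0.23).

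*Nr3c1*, the glucocorticoid receptor, lies at chr18:39410545-39519421 on the minus strand with no other protein-coding gene within 25 kb. Its 15 regions held 5706 counts in WT and 2745 in TCKO (4513 scaled), a log2 ratio of -0.34 (-0.40 to -0.27; percentile 2.53). The promoter region (chr18:39489463-39491911) took 59.8% of the WT counts of the locus and held 238 CpG. It had 3414 counts in WT and 1659 in TCKO (2728 scaled), a log2 ratio of -0.32 (-0.41 to -0.24), with 9 summits in WT and 6 in TCKO. Its highest stack was 77 reads in WT and 56 in TCKO, -0.09 from the median of shared regions. By counts the promoter was lower, and by stacked reads it stood near the median.

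A pair of neighbouring regions in the 3′ flank of *Nr3c1*, about 21.0 kb and 21.9 kb past the gene's end, was lower still. The stronger (chr18:39389218-39389916) held 774 and 249 counts (-0.92, -1.12 to -0.71). The weaker (chr18:39388511-39388764) held 112 and 21 (-1.67, -2.36 to -1.03), with 1 summit in WT and 0 in TCKO, the largest fall with at least 100 counts in any of the 10 loci. Over the whole locus 7 of 15 regions had an interval wholly below 0 and 3 wholly above 0. For the gene body with 2 kb of upstream sequence the ratio was -0.25.

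*Esr1*, estrogen receptor alpha, lies at chr10:4611593-5005614 on the plus strand, with *Syne1* in the window. It was the longest of these genes (394.0 kb), though its 44 regions held few counts each. They summed to 4559 in WT and 3012 in TCKO (4952 scaled), a log2 ratio of 0.12 (0.05 to 0.19). The promoters did not move together. Both regions at the first start were lower in TCKO: chr10:4611508-4612162 held 212 and 72 counts (-0.84), and chr10:4612331-4612571 held 117 and 30 (-1.23, -1.82 to -0.67). Each had a summit in the WT list and none in the TCKO list, and within 2 kb of this start the summed ratio was -0.97. The region at the start of other transcripts (chr10:4709622-4710370) held 277 and 190 counts (0.17, -0.09 to 0.44), with an interval that included 0.

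Of the 32 intronic regions of *Esr1*, 21 had a ratio above 0 and 11 below, where 45.4% of all regions inside genes lay below. The interval lay wholly above 0 in 9 (28.1%, against 29.5% of all regions) and wholly below in 2 (6.25%, against 18.9%). The strongest region of the locus (chr10:4983685-4984394) held 566 and 381 counts (0.15, -0.04 to 0.33). At least 2-fold higher were 6 intronic regions (18.8%, against 12.1% of all regions inside genes), with 17 to 41 counts each in WT. These 6 were sparse, 5 of them with under 100 counts over both genotypes. At that depth, 21.9% of all regions were at least 2-fold higher. With the GC trend removed, the ratio of the locus was 0.00.

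*Pth1r* encodes the receptor for parathyroid hormone and parathyroid hormone-related protein and marks the osteoblast lineage. It lies at chr9:110722085-110747145 on the minus strand, with *Ccdc12* and *Myl3* in the window, and its 19 regions held 6719 counts in WT and 3833 in TCKO (6302 scaled), a log2 ratio of -0.09 (-0.15 to -0.04). The strongest region, in an intron (chr9:110732362-110733345), held 1547 and 823 counts (-0.19, -0.32 to -0.07). Of the promoter regions, 1 was higher, with 421 and 310 counts (0.28, 0.06 to 0.49) at chr9:110741649-110742621, which is also within 1 kb of a start of *Myl3*, and the other, with 148 and 79 (-0.19, -0.58 to 0.20) at chr9:110743028-110743309, had an interval that included 0. The largest fall was the printed intronic region, whose full span is chr9:110736470-110736779, 6.09 kb after a start. It held 230 counts in WT and 52 in TCKO (85.5 scaled), a log2 ratio of -1.42 (-1.86 to -1.0), with 2 summits in WT and 0 in TCKO.

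Summed over the locus, both catabolic enzyme genes had ratios above 0 with total-count scaling, and below 0 without scaling (-0.55 for *Cyp24a1*, -0.42 for *Cyp26b1*) and by the peak caller's background (-0.44 and -0.31). *Cyp24a1*, the enzyme that inactivates vitamin D hormone, lies at chr2:170482708-170497145 on the minus strand beside *Pfdn4*. Its 13 regions held 3321 counts in WT and 2264 in TCKO (3722 scaled), a log2 ratio of 0.16 (0.09 to 0.24). The region at its start (chr2:170497259-170497625) held 239 and 170 counts (0.22, -0.06 to 0.51), and the strongest, 12.9 kb past its end (chr2:170469355-170470306), held 568 and 416 (0.27, 0.09 to 0.45). The 1 region past 2-fold was at chr2:170459955-170460201, 22.6 kb past its end, with 63 and 82 counts (1.09, 0.63 to 1.57). Of the 13 regions, 4 (30.8%, near the 29.5% of all regions) had an interval wholly above 0 and 0 wholly below, and 2 of these 4 lay at the *Pfdn4* promoter. With regions at promoters of other genes left out, the locus stood at 0.11.

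*Cyp26b1*, which degrades retinoic acid in skeletal tissues, had the highest ratio of the 10 loci. It lies at chr6:84571414-84593908 on the minus strand, with *Exoc6b* in the window. Its 12 regions held 3047 counts in WT and 2283 in TCKO (3753 scaled), a log2 ratio of 0.30 (0.22 to 0.38, percentile 89.7). Higher regions lay past the gene's end and also inside the gene. The rise 9.99 kb past the gene's end (chr6:84561209-84561635) held 370 counts in WT and 514 in TCKO (845.1 scaled), a log2 ratio of 1.19 (1.0 to 1.38), and carried the bZIP letters. Its stacked reads were 47 and 54, 0.57 above the median of shared regions.

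Without that region the *Cyp26b1* locus stood at 0.12, and with only the gene body and 2 kb upstream at -0.04. The neighbouring 3′ regions were also higher, with 481 and 358 counts (0.29, 0.09 to 0.49) at chr6:84565329-84565719 and 73 and 99 (1.15, 0.72 to 1.59) at chr6:84568264-84568488. Inside the gene, the printed intronic region (full span chr6:84579629-84579871) was lower, with 198 and 51 counts (-1.23, -1.68 to -0.80) and no summit in TCKO. Another intronic region (chr6:84575300-84575644) was higher, with 197 and 217 (0.85, 0.58 to 1.13). In the 5′ flank, 1 of 2 regions had an interval wholly above 0. The strongest region (chr6:84589968-84590566) held 641 and 394 counts (0.02, -0.17 to 0.20).

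**Figure D3:**
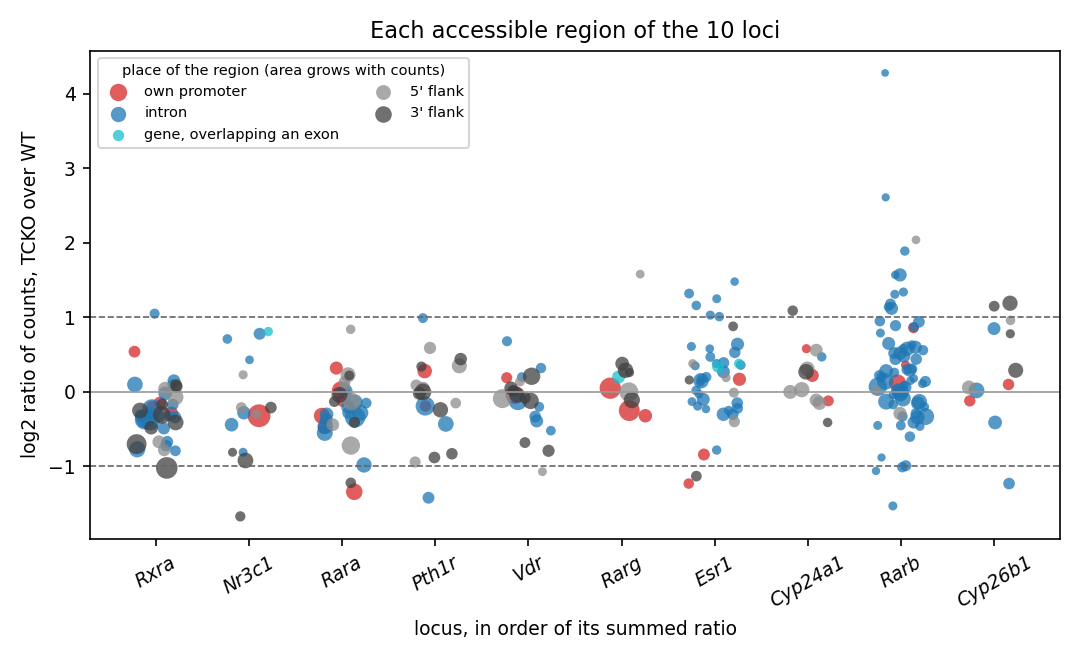
Log2 ratio of counts (TCKO over WT) of each of the 274 regions, by locus in order of the summed ratio and coloured by place, with a point area that grows with counts and dashed lines at 2-fold. The large points of *Rxra* and *Rara* lie mostly below 0, and the points above 2-fold are mostly small regions of *Rarb* (11) and *Esr1* (6).

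Across the 10 loci, the regions were also grouped by place and depth. The 29 regions within 1 kb of a member's own start had a median ratio of -0.12 (all promoter regions, -0.07), and 2 were at least 2-fold lower and 0 higher, where 1.27% and 2.71% of all promoter regions were. The 157 other regions inside the genes had a median of 0.02 (all such regions, 0.07), with 5 lower (3.18%, against 5.17%) and 17 higher (10.8%, against 12.1%). The 79 regions with 500 or more counts had a median of -0.12 (all such regions, -0.09), and the 64 with under 100 counts had 0.30 (all such regions, 0.17). The latter held 14 of the 22 rises, 21.9% of the 64, the same share as among all regions of that depth (21.9%). As a call in WT or TCKO was enough for a region to be listed, the peak lists and the ratios are linked: 11 of the 12 regions past 2-fold lower were listed in WT alone, and 10 of the 22 past 2-fold higher in TCKO alone. In all, 83 member regions (30.3%, against 33.0% of all regions) were listed in WT alone and 18 (6.57%, against 10.2%) in TCKO alone.

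The members were also read by sequence content. CpG dinucleotides are the substrate of DNA methylation, which TET enzymes oxidise. Member regions with under 1 CpG per 100 bp (n = 118) had a median ratio of 0.15, those with 1 to 3 (n = 115) -0.15 and those with 3 or more (n = 41) -0.10, where all regions had 0.23, -0.03 and -0.08. In both sets the class with the fewest CpG had the highest median. The classes also differed in depth, with median WT counts of 101.5, 197 and 376 in member regions and 66.0, 102 and 270 in all regions. The part of depth in these medians was not tested. The bZIP letters lay in the central 200 bp of 43 member regions (15.7%), of which 9 were at least 2-fold higher (20.9%, against 22.2% of all regions with the letters) and 2 lower (4.65%, against 1.30%). These 43 had a median of 0.22, below the 0.44 of all regions with the letters, and the 231 without had -0.02. The Runt letters lay in 61 member regions (22.3%), with a median of 0.13, against 0.09 for all regions with them.

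**Figure D4:**
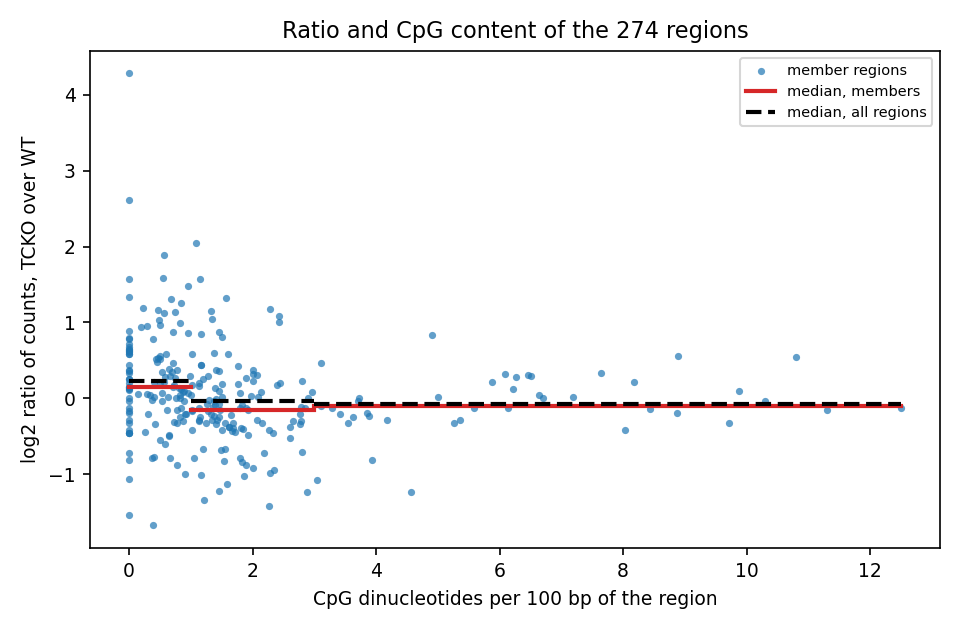
Log2 ratio of counts (TCKO over WT) of the 274 regions against CpG dinucleotides per 100 bp. Red lines give the medians of member regions in 3 classes (0.15, -0.15 and -0.10) and dashed black lines those of all regions (0.23, -0.03 and -0.08).

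Genes that supply the ligands, or that are known targets, were read in the same way from hand-made lists. Counts are of loci at least 20% lower or 25% higher, which held for 2.96% and 9.40% of all loci. Of 13 loci for retinoid supply, binding and breakdown, 1 was lower and 0 higher, with a median of 0.00. That locus was *Dhrs3*, a retinaldehyde reductase that limits retinoic acid formation, with 16119 counts in WT and 6124 in TCKO (-0.68, -0.72 to -0.64; percentile 0.256), a larger difference than at any member. Of 11 loci for glucocorticoid supply and targets, 2 were lower and 0 higher (median -0.15). They were *Dusp1*, a MAP kinase phosphatase (16635 and 7517 counts, -0.43, -0.47 to -0.39), and *Tsc22d3*, which encodes GILZ (5003 and 2309, -0.40, -0.47 to -0.33). Both are known glucocorticoid-induced genes. The listed *Fkbp5* (0.17), *Per1* (0.00) and *Zbtb16* (-0.16) were past neither cutoff. Of the 11 loci, 9 had a ratio below 0 and 2 above. Of 10 estrogen pathway loci, 1 was lower, the membrane estrogen receptor gene *Gper1* (6525 and 2862, -0.47), and 4 were higher, led by the progesterone receptor *Pgr* (687 and 622, 0.57) and the aromatase gene *Cyp19a1* (1190 and 984, 0.44).

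Of 10 vitamin D loci, 2 were higher and 0 lower. These were *Gc*, the serum vitamin D binding protein (1146 and 1020, 0.55), and *Lrp2*, megalin (4060 and 3109, 0.33). Of 18 loci of the parathyroid hormone pathway, *Pth2r* was higher (3100 and 2515, 0.42) and 0 was lower. None of the 29 loci of other nuclear receptors (median -0.03, -0.24 to 0.27) or the 14 of coactivators and corepressors (median -0.03, -0.24 to 0.18) was past either cutoff. With total-count scaling, the ratios at *Rxra*, *Rara* and *Nr3c1* lay below the range of these 29 related receptors. This is a description only, as these loci were singled out by the same ratios and the list was chosen with earlier results known. The range of the list under other scalings was not computed.

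The labelled cell type was checked by its markers. All 12 osteoblast marker genes, *Pth1r* among them, had an accessible promoter region, with 11343 counts in WT and 10714 scaled counts in TCKO, and 1 of the 12 loci, *Mef2c* (-0.34), was at least 20% lower. Promoter regions were found for 6 of 10 macrophage and osteoclast markers (2018 and 2813), 6 of 8 endothelial (2460 and 2665), 2 of 8 skeletal muscle (280 and 327), 5 of 8 chondrocyte (3913 and 3698) and 6 of 6 neural markers (2091 and 2262). Among the muscle markers, *Myod1*, *Myog*, *Myf5*, *Ckm*, *Acta1* and *Pax7* had none, whereas *Des* and *Mymk* had one. Among the macrophage and osteoclast markers, *Ptprc*, *Tyrobp*, *Ocstamp* and *Itgam* had none, whereas *Csf1r*, *Spi1*, *Cd68*, *Adgre1*, *Acp5* and *Fcgr3* had one. At the level of loci, 5 of 8 endothelial markers were at least 25% higher and 1 lower, and 1 of 10 macrophage, 2 of 8 muscle, 0 of 8 chondrocyte and 2 of 6 neural marker loci were higher. Over all loci, 2.96% were at least 20% lower and 9.40% at least 25% higher. The part of other cells in the ratios of the members was not tested.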

How the data were processed

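ATAC-seq of primary osteoblasts was used from 4 labelled samples, 2 WT and 2 TCKO. Per the labels and methods, the authors aligned reads to GRCm38 with STAR 2.7.0e, pooled replicates by genotype and then ran MACS2 for peaks. They deposited raw read counts per region in 1 column per genotype, counted with bedtools multicov as the file naming shows, and peak lists in which every summit has a fold over local background, with −log10 p-values and q-values (the latter not used). Whether repeated reads were removed before counting, and whether reads were shifted for the transposase, is not given in the sources used here. No column of other samples was left aside (0 columns).

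The planned quasi-likelihood test of edgeR needs replicate columns and was not run. To both counts 1 was added after scaling, and log2 of TCKO over WT was taken, with a cutoff of 2-fold for regions and of 20% lower or 25% higher for loci. A locus summed the counts of regions overlapping a gene and 25 kb on either side. Intervals come from the 95% Wilson interval of TCKO's share, with total counts of 56898657 in WT and 34608167 in TCKO, so they reflect counting error alone. Stacked reads at summits were recovered from the fold and the p-value of the peak lists. The members and lists were chosen with earlier results of these data known. Named regions were, in each locus, the region with the most counts, those within 1 kb of a start of the gene, and the largest fall and rise past 2-fold whose larger count was at least 100, and other regions were named after their values were seen. List genes were named from 500 counts, at most 2 in each direction. Coordinates count from 1, and letters were searched on both strands of the reference (GRCm38) or of RefSeq promoters (GRCm38.p6). Scaling alternatives used TMM (edgeR 4.0.16, R 4.3.3), size factors (DESeq2 1.42.0), a loess fit (statsmodels 0.14.6, span 0.3) and 20 bins of GC content, with Python 3.11.15 and scipy 1.17.1. Simulated counts were used to check the ratio and interval steps.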

Additional observations from a re-analysis of the deposited data

How the results depend on the processing

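No paired analysis was possible because the replicate numbers of the labels have no columns of their own, and for the same reason tests by edgeR or DESeq2 and leaving out a replicate were not run. With TMM, size factors, loess or the GC trend, 12 to 15 member regions were at least 2-fold lower and 15 to 19 at least 2-fold higher, close to the 12 and 22 given, and the member median stayed 0.03 to 0.06 below that of all regions. Without scaling, 78 were lower and 4 higher with a median of -0.71, and with the caller's lowest background as the measure of depth 51 and 4 with a median of -0.60, as all regions moved to medians of -0.64 and -0.54. A cutoff of 1.5-fold gave 34 and 44, 3-fold 1 and 4, an interval wholly past 2-fold 2 and 5, and the gene with the 2 kb before its start 7 lower. Locus directions turned in *Rarb* (-0.55 without scaling, -0.44 by the caller's background), *Cyp24a1* (-0.55, -0.44), *Cyp26b1* (-0.42, -0.31, and -0.04 over the gene and 2 kb before its start) and *Esr1* (-0.60, -0.49, and 0.00, just below 0, with the GC trend removed). Within 2 kb of the start, *Rara* turned to 0.23, *Pth1r* to 0.35 and *Esr1* to -0.97. The cause of these shifts was not tested. Here the start was the outermost 5′ end of the gene, so alternative starts farther inside were not covered. The *Rara* value came from a 5′ flank region (chr11:98925843-98926270, 476 and 340 counts), while the region over its CpG-rich start stood at 0.02. The *Pth1r* value came from a region inside *Myl3* (chr9:110748321-110748893, 475 and 369). *Rarb*, at 0.71, rested on regions of 81 and 90 and of 42 and 33 counts, away from the DR5 promoter (0.12). *Rxra*, *Rara* and *Nr3c1* were all at least 20% lower with TMM, size factors and other promoters left out, but so were all 10 loci without scaling and 9 by the caller's background, and within 2 kb of the start, where 7 loci held regions, *Esr1* was lower and *Rarb* and *Pth1r* higher. Leaving out the region with the largest difference, chosen after the data were seen, kept 1 (*Nr3c1*), and summing the gene and 2 kb before its start kept 1 (*Rara*). The 9 largest falls and rises kept their direction under all 6 scalings, but fewer stayed past 2-fold: 8 with loess (without the *Rxra* fall, -0.86), 8 with the GC trend removed (without the *Cyp26b1* rise, 0.97) and 7 without scaling or by the caller's background (without the rises at *Cyp26b1*, 0.47 and 0.58, and *Rarb*, 0.86 and 0.96). Depth limits the sparse regions: 64 of the 274 held under 100 counts, and reads stacked at summits, also compared after the data were seen, exist in both genotypes for 173.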
